A study of Mus musculus with 6 samples.

Results

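The genes described here are 33 that build and serve the folding machinery of the endoplasmic reticulum (ER), taken by symbol from the deposited gene count table and picked for what they are known to do. All 33 were found, among 18543 genes in that table. They were measured in 6 messenger RNA libraries of group 2 innate lymphoid cells (ILC2s), tissue lymphocytes that release type 2 cytokines on contact with the epithelial alarmin IL-33. Of these, 3 are labelled KO 1 to KO 3, from Atg5-/- mice, and are set against 3 labelled WT 1 to WT 3, from wild-type mice. ATG5 is needed to attach LC3 to the autophagosome, so its loss impairs autophagy. All mice were of the C57BL/6 strain and 8 weeks old, all received 0.5 µg of recombinant mouse IL-33 by the nose on each of 3 days, and cells were sorted from lung on day 4. No unstimulated mice are among these groups. The labels give no Cre driver or other detail of the Atg5 allele. The series asks how ILC2s differ when autophagy is impaired.

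Proteins for secretion and for the cell surface enter the ER through the Sec61 channel, are folded there by chaperones and disulfide isomerases, and are sent back to the cytosol for destruction by ER-associated degradation (ERAD) when folding fails. A load of unfolded protein is read by the membrane sensors IRE1 (Ern1), ATF6 and PERK (Eif2ak3). IRE1 splices Xbp1 messenger RNA into the form that encodes an active transcription factor, and XBP1 and ATF6 then raise chaperone and ERAD genes, many through a promoter motif called the ER stress response element (ERSE). Lymphocytes that secrete large amounts of protein, plasma cells above all, depend on this programme. The counts cover whole genes, so spliced and unspliced Xbp1 are not separated here.

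The labels needed a check before any comparison. Atg5 was at 23.0, 25.6 and 52.2 CPM (counts scaled to a common library size) in KO-labelled libraries 1, 2 and 3, against 66.3, 71.8 and 21.8 CPM in WT-labelled libraries 1, 2 and 3. The library labelled WT 3 therefore goes against its label, and the one labelled KO 3 lay above the others labelled KO by 1.09 log2 units and below those labelled WT 1 and WT 2. Whether either label is right cannot be told from these files, so values of the 33 genes are given with and without the library labelled WT 3, and also without both libraries numbered 3 where that changes a call or a sign. Library totals ranged from 28827545 to 33662979 estimated counts, so 3 counts correspond to 0.0892 to 0.104 CPM. All 12 ILC2 markers looked for were detected, led by Il5, Il2ra and Id2, with summed levels of 11302 to 15274 CPM under the KO label and 15317 to 17891 CPM under the WT label. Il5 was the largest single part of these sums. Under the KO label it was at 9194, 8702 and 5352 CPM in libraries 1, 2 and 3. Under the WT label it was at 8242, 9003 and 9148 CPM in the same order. Several other ILC2 markers set the libraries labelled WT 1 and WT 2 apart from the other 4. Klrg1 was at 174, 163 and 121 CPM in KO-labelled libraries 1, 2 and 3, against 526, 556 and 154 CPM in WT-labelled libraries 1, 2 and 3. Gata3, Il1rl1, Rora, Areg, Id2, Il2ra and, by less, Icos were likewise highest in that pair, while Il13, Kit and, by less, Il7r were lowest there. The part of these markers in the results on the ER genes was not tested. The summed levels of 9 of 10 T cell markers (31.7 to 33.5 CPM under the KO label, 28.9 to 47.8 CPM under the WT label, led by Cd3g, Cd3e and Cd28) and of 4 of 7 NK cell and ILC1 markers (0.520 to 1.05 and 0.895 to 3.76 CPM, led by Prf1, Gzma and Tbx21) were low. So were those of 9 of 14 macrophage and dendritic cell markers (30.5 to 59.7 and 53.3 to 73.2 CPM, led by Cd74, Chil3 and Cd68) and of 5 of 11 granulocyte and mast cell markers (0.542 to 4.26 and 3.91 to 12.8 CPM, led by Cpa3, Fcer1a and Mcpt8). Of the lung epithelium markers 5 of 8 were in the table and summed to 9.35 to 29.6 CPM under the KO label and 15.3 to 59.1 CPM under the WT label, led by Epcam, Scgb1a1 and Krt18. Epcam was at 12.6, 13.7 and 8.90 CPM in KO-labelled libraries 1, 2 and 3, against 57.4, 52.3 and 14.3 CPM in WT-labelled libraries 1, 2 and 3, and the other 4 of these markers were at 1 CPM or less in all libraries, save Scgb1a1 at 15.02 CPM in the library labelled KO 2. For stroma and endothelium 3 of 7 markers were in the table, and they summed to 92.0 to 131 CPM under the KO label, and to 10.4, 8.57 and 93.6 CPM in WT-labelled libraries 1, 2 and 3. Nearly all of that was Pecam1, the adhesion molecule CD31, while Col1a1 and Col1a2 were at 0.542 CPM or less. Pecam1 was at 107, 92.0 and 131 CPM in KO-labelled libraries 1, 2 and 3, against 10.4, 8.54 and 93.1 CPM in WT-labelled libraries 1, 2 and 3, so Pecam1 and Epcam both set WT 1 and WT 2 apart as many ER genes did, and their part in those results was not tested.

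Most of the 33 genes were highest in the libraries labelled WT 1 and WT 2. In 19 of 33 both of these lay above the other 4 libraries, the library labelled WT 3 included, against 28.2% of all 14052 genes tested. Among 98 other ER genes, described further below, that share was 40.8%. The library labelled WT 3 lay nearer to the mean of those labelled KO than to those labelled WT 1 and WT 2 in 29 of 33 members, against 76.3% of all tested genes. Among the other ER genes it did so in 80.6%. Summed over the members, the level was 12466, 12251 and 15016 CPM in KO-labelled libraries 1, 2 and 3, against 16619.7, 17464 and 12717 CPM in WT-labelled libraries 1, 2 and 3. The group means were 13244 ± 1538 CPM for KO and 15600.3 ± 2532 CPM for WT (SD, n = 3 each), a gap smaller than the spread under the WT label. These genes made up 1.22% to 1.48% of the library under the KO label and 1.27% to 1.73% under the WT label. In bulk RNA, fewer cells of a type and less RNA per cell cannot be told apart.

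**Figure D1:**
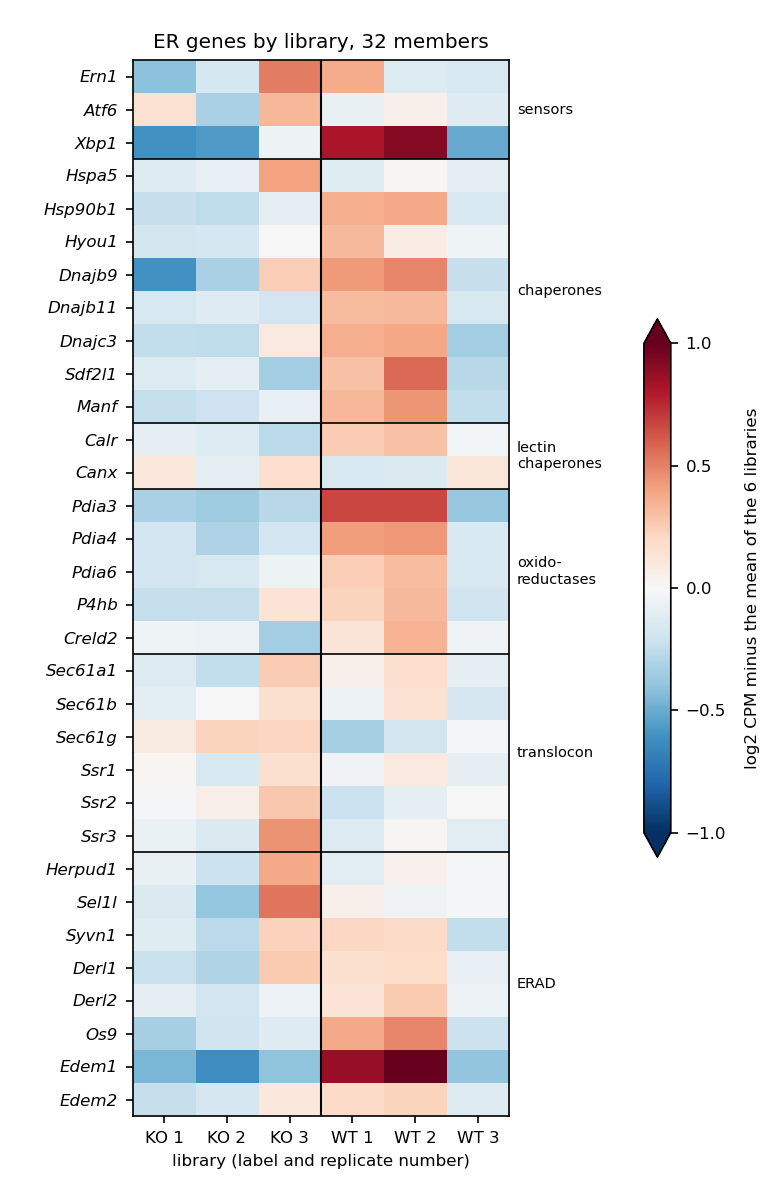
Level of 32 members in each library (columns; KO left, WT right), as log2 CPM minus the mean of the 6 libraries, with genes grouped by role; Derl3, at under 2 CPM throughout, is not drawn. The columns labelled WT 1 and WT 2 are the warmest for Xbp1, Edem1, Pdia3 and most chaperones, the column labelled WT 3 is close to those labelled KO 1 and KO 2, and Hspa5, Sel1l and Ssr3 are highest in the column labelled KO 3.

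Over the full set of 6 libraries, the quasi-likelihood test of edgeR called 0 of 32 members (33 less Derl3, which did not pass the low-count filter), as it called 0% of all 14052 genes. Adjusted p-values of the members ran from 0.342 to 0.983 in edgeR. An unadjusted p under 0.05 was found for 4 of 32 members and for 2026 of all 14052 genes, a similar share. DESeq2, limma-voom and limma-trend also called 0 members, while DESeq2 called 2.19% of all genes lower and 0.107% higher. The median log2 difference of KO over WT was -0.23 over the members and 0.02 over all tested genes. The groups did not overlap in 6 members. Calr, Pdia4, Creld2, Derl2 and Edem1 were lower in all 3 libraries labelled KO, a position held by 9.22% of all tested genes, and Sec61g was higher, as were 9.26%.

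Without the library labelled WT 3, edgeR called 14 of the 33 members lower and 1 higher in KO, where 16.1% of 14743 tested genes were called lower and 17.7% higher. The median over members was -0.32 on the log2 scale, and 0.02 over all tested genes. Derl3 is among the 14, and it passed the filter only through the libraries in which it is high, which leaves 13 of 32 lower. Without both libraries numbered 3, a comparison of 2 libraries with 2, 23 members were lower and 1 was higher, where 22.7% of genes were called lower and 22.7% higher. Those 23 comprised 7 of 8 chaperones, 5 of 5 oxidoreductases, 8 of 9 ERAD genes, Xbp1, Calr and Sec61a1, and without Derl3 they were 22 of 32. These calls rest on the libraries labelled WT 1 and WT 2, and a property of that pair other than genotype cannot be told apart from the label in either fit. Leaving out any other single library gave 0 calls among the members and 0 among all genes.

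**Figure D2:**
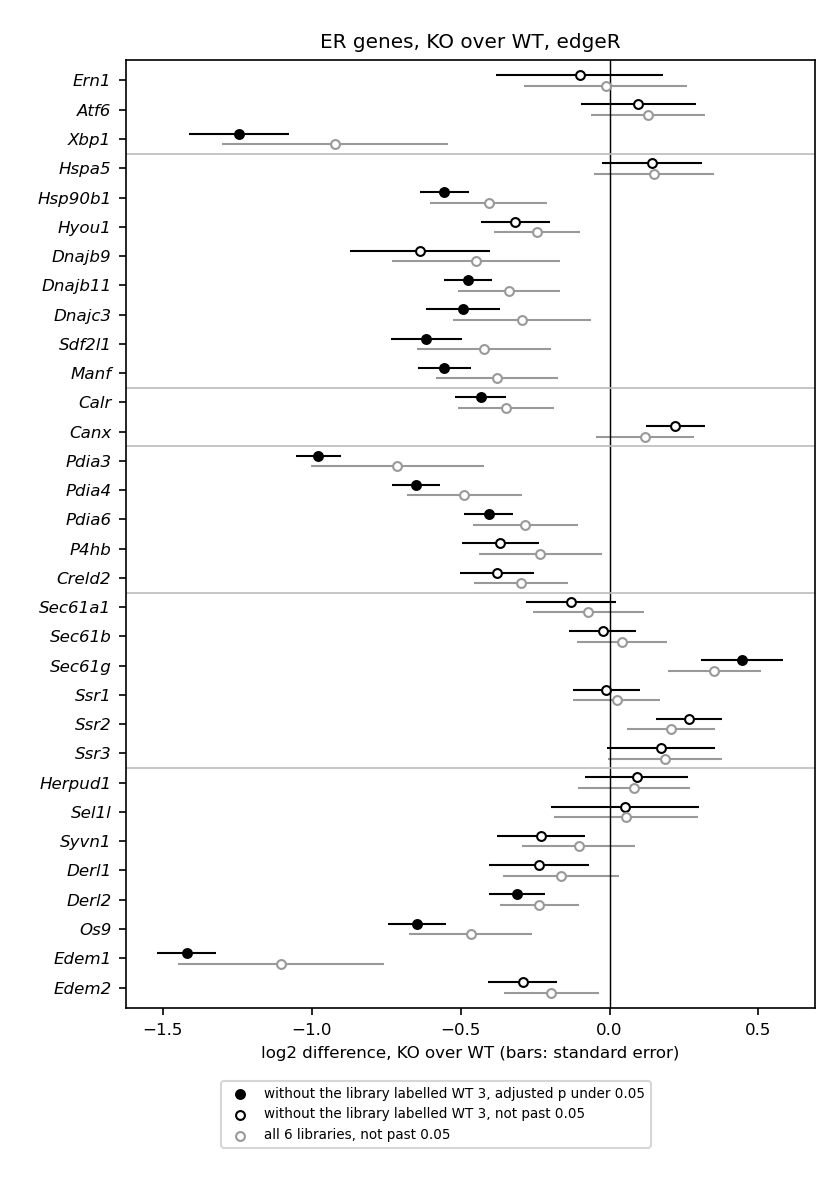
Log2 difference of KO over WT for 32 members from edgeR, with standard errors: black without the library labelled WT 3, grey with all 6 libraries, filled where the adjusted p was under 0.05. Without that library Edem1 (-1.42), Xbp1 (-1.25) and Pdia3 (-0.98) lie farthest to the left and Sec61g (0.45) farthest to the right, and no grey point is filled.

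Promoters of many members carry the ERSE, and those letters are shown because the motif is how this programme is best known to be switched on. RefSeq promoter windows of the GRCm38.p6 build, from 250 bases before to 50 bases after the annotated start, were matched for 27 of 33 members. Atf6, Hyou1, Manf, Sec61a1, Ssr2 and Derl1 had no entry. Both strands were searched for the ERSE, CCAAT and CCACG with 9 bases between them and no mismatch. It was found in 9 of 27 members (33.3%), against 37 of all 27025 genes with a promoter entry (0.137%), and these 9 are a part of those 37. Members were picked as known ER stress genes, so the excess describes the choice and is no test. With 1 mismatch allowed, 15 of 27 members and 1.72% of all genes had a match. ERSE-II, ATTGG and CCACG with 1 base between them, was found in Dnajb11 and Herpud1, against 0.0444% of all genes, and shares the CCACG end with the ERSE. The core TGACGTGG of the XBP1 site was found in 0 of 27 members and 0.714% of all genes. Each stretch below lies before the start given by RefSeq and is written 5′ to 3′ on the strand of the gene, with the fixed letters of the motif in capitals; where the motif reads on the opposite strand the capitals are CGTGG and ATTGG.
Hspa5, chr2:34771995-34772073, forward strand: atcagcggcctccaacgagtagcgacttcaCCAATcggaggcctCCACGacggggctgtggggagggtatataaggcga
Hsp90b1, chr10:86705608-86705686, reverse strand: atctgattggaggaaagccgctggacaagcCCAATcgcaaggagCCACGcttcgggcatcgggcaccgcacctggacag
Hsp90b1, second site, chr10:86705503-86705581, reverse strand: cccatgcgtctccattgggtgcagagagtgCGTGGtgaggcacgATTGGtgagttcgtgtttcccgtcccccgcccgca
Dnajc3, chr14:118937797-118937875, forward strand: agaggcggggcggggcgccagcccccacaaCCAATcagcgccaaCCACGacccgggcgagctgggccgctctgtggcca
Calr, chr8:84847045-84847123, reverse strand: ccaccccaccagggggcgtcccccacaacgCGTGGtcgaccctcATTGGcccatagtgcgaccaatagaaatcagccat
Canx, chr11:50325770-50325848, reverse strand: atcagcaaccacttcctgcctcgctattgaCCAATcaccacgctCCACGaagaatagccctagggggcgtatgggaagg
Pdia6, chr12:17266461-17266539, forward strand: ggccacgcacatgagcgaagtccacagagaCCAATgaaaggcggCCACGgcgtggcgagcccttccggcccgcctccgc
Creld2, chr15:88819490-88819568, forward strand: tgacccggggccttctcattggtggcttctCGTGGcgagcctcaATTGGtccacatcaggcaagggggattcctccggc
Syvn1, chr19:6046502-6046575, forward strand: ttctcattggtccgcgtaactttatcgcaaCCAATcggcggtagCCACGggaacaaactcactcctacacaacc
Derl3, chr10:75893212-75893290, forward strand: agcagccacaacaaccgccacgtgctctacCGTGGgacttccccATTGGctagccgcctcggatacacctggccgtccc
Herpud1, ERSE-II, chr8:94386347-94386417, forward strand: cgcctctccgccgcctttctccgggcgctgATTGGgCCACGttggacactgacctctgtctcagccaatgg

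The 9 genes with an exact ERSE did not share a sign. Without the library labelled WT 3, their log2 differences ran from 0.22 for Canx and 0.14 for Hspa5 to -0.55 for Hsp90b1, leaving aside Derl3. Their median over the 9, Derl3 included, was -0.41. The 18 members with a promoter entry and no exact ERSE had a median of -0.34, from -1.42 for Edem1 to 0.45 for Sec61g. With all 6 libraries, where Derl3 was not tested, the medians were -0.29 over 8 genes with an exact ERSE and -0.23 over the 18 without. Apart from Derl3, the 3 most negative differences without the library labelled WT 3 were those of Edem1, Xbp1 and Pdia3. None of their windows held an exact ERSE. With 1 mismatch allowed, the window of Pdia3 held a match, and those of Edem1 and Xbp1 did not.

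**Figure D3:**
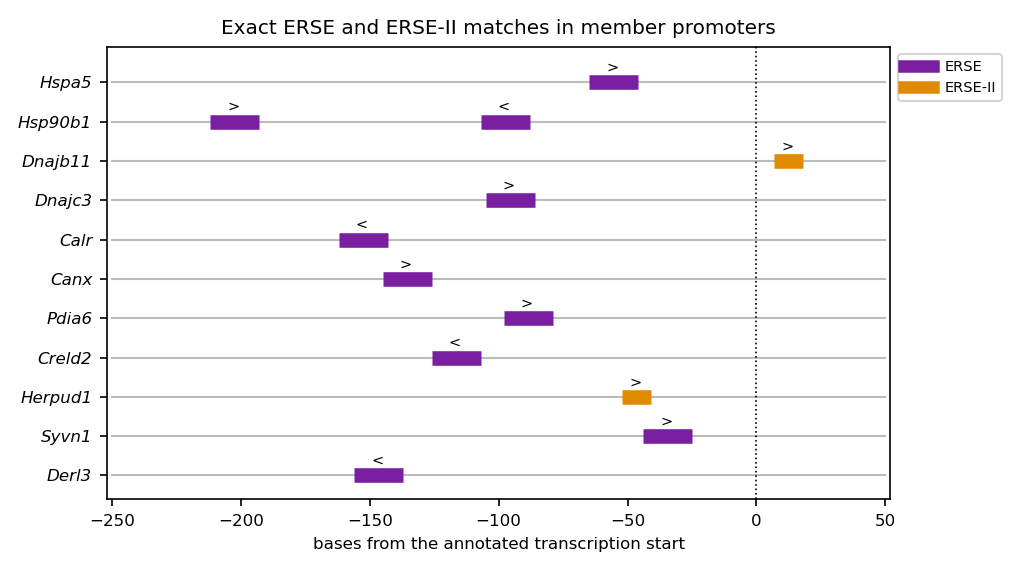
Positions of exact ERSE (purple) and ERSE-II (orange) matches in the promoter windows of 11 members, in bases from the annotated start, with arrows for the strand. Nearly all lie before the start, from 44 bases before it in Syvn1 to 212 bases before it in Hsp90b1, and the ERSE-II of Dnajb11 lies after it.

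Among the sensors and their factor, only Xbp1 passed without the library labelled WT 3, and a difference between it and Ern1 or Atf6 was not tested. Xbp1 lies on chromosome 11 from 5520659 to 5525893, forward strand, in mm10, the build of all gene positions given here. It was at 378, 386 and 553 CPM in KO-labelled libraries 1, 2 and 3, against 1012, 1078 and 404 CPM in WT-labelled libraries 1, 2 and 3. The groups overlapped through the library labelled WT 3, which was below the one labelled KO 3. The log2 difference was -0.92 (SE 0.38, adjusted p = 0.344, edgeR) with all 6 libraries. Without the library labelled WT 3, Xbp1 fell by 1.25 log2 units (SE 0.17, adjusted p = 0.00155, edgeR).
Ern1, the kinase and ribonuclease that splices Xbp1, was at 48.8, 57.6 and 92.7 CPM in KO-labelled libraries 1, 2 and 3, against 83.8, 59.0 and 58.0 CPM in WT-labelled libraries 1, 2 and 3. The highest and the lowest library both carried the KO label, and the log2 difference was -0.01 (SE 0.27) with all 6 libraries and -0.10 (SE 0.28) without the library labelled WT 3. Atf6, whose protein is cut in the Golgi to release a transcription factor, was at 55.4, 39.8 and 63.0 CPM under the KO label in the same order, against 47.4, 51.6 and 45.6 CPM under the WT label. Its groups overlapped, with log2 differences of 0.13 (SE 0.19) and 0.10 (SE 0.19) in the same fits. Neither sensor passed in any fit run, the comparison without both libraries numbered 3 included (adjusted p = 0.0596 for Ern1 and 0.824 for Atf6, edgeR). The count of Xbp1 was 6.81, 9.71 and 8.77 times that of Atf6 in KO-labelled libraries 1, 2 and 3, against 21.3, 20.9 and 8.84 times in WT-labelled libraries 1, 2 and 3.

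Of the 8 chaperones of the HSP70 and HSP90 systems, 5 fell without the library labelled WT 3, and Hspa5 was not among them. Of all tested genes 16.1% were called lower in that fit. Hspa5 encodes BiP, the ER HSP70 that binds unfolded chains and holds the sensors inactive, and lies on chromosome 2 from 34771970 to 34777547, forward strand. It was at 2221, 2295 and 3217 CPM in KO-labelled libraries 1, 2 and 3, against 2228, 2459.8 and 2286 CPM in WT-labelled libraries 1, 2 and 3. The library labelled KO 3 stood above the other 5, which lay between 2221 and 2459.8 CPM. The log2 difference was 0.15 (SE 0.20, adjusted p = 0.691, edgeR) with all 6 libraries, 0.14 (SE 0.17, adjusted p = 0.561) without the library labelled WT 3, and -0.05 (SE 0.07, adjusted p = 0.619) without both libraries numbered 3. Hsp90b1, which encodes the ER HSP90 paralogue GRP94, was at 1124, 1105 and 1236 CPM in KO-labelled libraries 1, 2 and 3, against 1695, 1713 and 1183 CPM in WT-labelled libraries 1, 2 and 3. Those labelled WT 1 and WT 2 stood above the other 4, and Hsp90b1 fell by 0.55 (SE 0.08, adjusted p = 0.00244, edgeR) without the library labelled WT 3. In the GENCODE annotation 10.3% of its exon bases overlap 1810014B01Rik on the opposite strand, and without stated strand such reads cannot be told apart. The same limit holds for Ssr2 (12.8% of exon bases, Gm10704) and Sec61a1 (8.2%, Gm44170), and overlaps in the other members were smaller.

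The other chaperones that fell without the library labelled WT 3 were co-factors of BiP and a small secreted ER protein. Dnajb11, a J-domain partner of BiP, fell by 0.47 on the log2 scale (SE 0.08), and Dnajc3, which encodes the J-domain protein p58IPK, by 0.49 (SE 0.12). Sdf2l1, which works with Dnajb11, fell by 0.61 (SE 0.12). Manf, a stress-induced ER protein that is also secreted, fell by 0.55 (SE 0.09). Their adjusted p in edgeR ran from 0.00339 for Manf to 0.0204 for Dnajc3. Sdf2l1 was at 172, 177 and 149 CPM in KO-labelled libraries 1, 2 and 3, against 231, 279 and 156 CPM in WT-labelled libraries 1, 2 and 3, so that the library labelled WT 3 again lay inside the range of those labelled KO. Dnajb9, a J-domain gene classed as a target of XBP1, had the largest difference of the chaperones, -0.64, but also the largest error (SE 0.24, adjusted p = 0.0767, edgeR). It was at 25.5, 30.999 and 46.0 CPM in KO-labelled libraries 1, 2 and 3, against 52.1, 54.6 and 33.1 CPM in WT-labelled libraries 1, 2 and 3. Of the libraries labelled KO, the third had the level closest to those labelled WT 1 and WT 2. Hyou1, a large HSP70 relative that exchanges the nucleotide of BiP, was at 72.4 to 82.5 CPM under the KO label and 79.9 to 103 CPM under the WT label, and did not pass in that fit (-0.32, SE 0.12, adjusted p = 0.0771, edgeR). With all 6 libraries the log2 differences of the 7 chaperones other than Hspa5 ran from -0.45 for Dnajb9 to -0.24 for Hyou1, and none passed. Without both libraries numbered 3, Dnajb9 fell by 0.91 (SE 0.13, adjusted p = 0.000333) and Hyou1 by 0.38 (SE 0.10, adjusted p = 0.013) in edgeR.

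The lectin chaperones, which hold glycoproteins by their trimmed sugars, differed in sign, which was not tested as a difference between them. Calr, the soluble lectin calreticulin, was at 721, 702 and 640.1 CPM in KO-labelled libraries 1, 2 and 3, against 919.8, 945 and 757 CPM in WT-labelled libraries 1, 2 and 3. The groups did not overlap, and Calr fell by 0.43 (SE 0.09, adjusted p = 0.00793, edgeR) without the library labelled WT 3 but did not pass with all 6 (-0.35, SE 0.16, adjusted p = 0.353). Canx, its membrane-bound relative calnexin, was at 782, 683 and 815 CPM in KO-labelled libraries 1, 2 and 3, against 651, 659 and 789 CPM in WT-labelled libraries 1, 2 and 3. In Canx those labelled WT 1 and WT 2 were the lowest, and the log2 difference without the library labelled WT 3 was 0.22 (SE 0.10, adjusted p = 0.129, edgeR). The ratio of Calr to Canx counts was 0.922, 1.03 and 0.785 in KO-labelled libraries 1, 2 and 3, against 1.41, 1.43 and 0.959 in WT-labelled libraries 1, 2 and 3. An exact ERSE stands in both promoters, as printed above.

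The 4 disulfide isomerases and Creld2 all had negative differences, and 3 of the 5 fell without the library labelled WT 3. The share of all tested genes called lower there was 16.1%. Pdia3, also known as ERp57, forms disulfide bonds in glycoproteins brought by calreticulin and calnexin and also serves in MHC class I loading. It lies on chromosome 2 from 121413775 to 121438687, forward strand. It was at 999, 979 and 1034 CPM in KO-labelled libraries 1, 2 and 3, against 1984, 1985 and 965 CPM in WT-labelled libraries 1, 2 and 3. Those labelled WT 1 and WT 2 agreed closely with each other, and the other 4 libraries lay together at a lower level. Pdia3 fell by 0.98 (SE 0.07, adjusted p = 0.000181, edgeR) without the library labelled WT 3, while with all 6 the value was -0.71 (SE 0.29, adjusted p = 0.343).
Pdia4 fell by 0.65 (SE 0.08, adjusted p = 0.00115) and Pdia6 by 0.41 (SE 0.08, adjusted p = 0.00896) in edgeR without that library. P4hb, which encodes the founding member protein disulfide isomerase, was at 975, 969 and 1258 CPM in KO-labelled libraries 1, 2 and 3, against 1334, 1430.3 and 996 CPM in WT-labelled libraries 1, 2 and 3, and had a log2 difference of -0.37 (SE 0.13, adjusted p = 0.0674, edgeR). Creld2, a stress-induced ER protein with EGF-like domains, was lower in every library labelled KO (115 to 141 CPM) than under the WT label (142 to 184 CPM), and also missed the threshold (-0.38, SE 0.12, adjusted p = 0.0538, edgeR). With all 6 libraries the log2 differences were -0.49 for Pdia4, -0.28 for Pdia6, -0.23 for P4hb and -0.30 for Creld2, and none passed. Without both libraries numbered 3, P4hb fell by 0.50 (SE 0.06, adjusted p = 0.000145) and Creld2 by 0.29 (SE 0.09, adjusted p = 0.0229) in edgeR. The count of Hspa5 was 2.22, 2.34 and 3.11 times that of Pdia3 in KO-labelled libraries 1, 2 and 3, against 1.12, 1.24 and 2.37 times in WT-labelled libraries 1, 2 and 3.

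Genes of the translocon, the channel in the ER membrane and the proteins bound to it, gave 1 call of 6 without the library labelled WT 3, with a median log2 difference of 0.08. That call was higher, where 17.7% of all tested genes were called higher and 16.1% lower. Sec61a1 encodes the pore subunit and lies on chromosome 6 from 88503579 to 88518905, reverse strand. It was at 587, 545 and 771 CPM in KO-labelled libraries 1, 2 and 3, against 669.5, 725 and 605 CPM in WT-labelled libraries 1, 2 and 3. Its groups overlapped, and the log2 difference was -0.07 (SE 0.19) with all 6 libraries and -0.13 (SE 0.15) without the library labelled WT 3 (adjusted p = 0.846 and 0.562, edgeR). Without both libraries numbered 3, Sec61a1 fell by 0.29 (SE 0.07, adjusted p = 0.00768, edgeR). Sec61b, a small subunit, stayed between 202 and 244 CPM under the KO label and between 194 and 242 CPM under the WT label (log2 difference 0.04 with all 6 libraries and -0.02 without the library labelled WT 3).

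Sec61g was the only member called higher without the library labelled WT 3. It encodes the gamma subunit, which clamps the pore. Sec61g was at 27.1, 29.7 and 29.5 CPM in KO-labelled libraries 1, 2 and 3, against 20.2, 22.4 and 25.2 CPM in WT-labelled libraries 1, 2 and 3. The groups did not overlap, and the library labelled WT 3 lay between the others. Sec61g rose by 0.45 (SE 0.14, adjusted p = 0.0454, edgeR) in that fit, against 0.35 (SE 0.16, adjusted p = 0.348) with all 6 libraries. Its longest coding transcript shares 420 bases at 95% identity or more with the annotated gene Gm10177, which is also in the count table, so reads could have been split between them. Sec61b has such stretches in common with Gm10320 and Gm5870, and Derl1 with Gm35638. Ssr1, Ssr2 and Ssr3 encode subunits of the translocon-associated protein complex, which helps some signal sequences through. None passed without the library labelled WT 3 (log2 differences -0.01, 0.27 and 0.17, adjusted p = 0.953, 0.11 and 0.513, edgeR), nor with all 6 (0.02, 0.21 and 0.19). Ssr3 was at 268, 254 and 383 CPM in KO-labelled libraries 1, 2 and 3, against 254, 283 and 259 CPM in WT-labelled libraries 1, 2 and 3, and the one labelled KO 3 stood well above the rest. A difference between the translocon genes and the chaperones was not tested.

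Of the 9 ERAD genes 4 fell without the library labelled WT 3, Derl3 included, beside 16.1% of all tested genes. Derl3 passed the filter only through the libraries in which it is high. Leaving Derl3 aside, Edem1 had the largest difference. Edem1, a lectin that extracts misfolded glycoproteins from the folding cycle and a known target of XBP1, lies on chromosome 6 from 108828641 to 108859356, forward strand. It was at 209, 186 and 217 CPM in KO-labelled libraries 1, 2 and 3, against 525, 571 and 218 CPM in WT-labelled libraries 1, 2 and 3. All 3 libraries labelled KO were below all 3 labelled WT, but the one labelled WT 3 was only just above them. Edem1 had a log2 difference of -1.10 (SE 0.35, adjusted p = 0.342, edgeR) with all 6 libraries and fell by 1.42 (SE 0.10, adjusted p = 0.000133, edgeR) without the library labelled WT 3. Its relative Edem2, which starts the trimming of mannose that marks a glycoprotein for ERAD, was at 116, 121 and 146 CPM in KO-labelled libraries 1, 2 and 3, against 156, 159 and 125 CPM in WT-labelled libraries 1, 2 and 3. Edem2 did not pass in that fit (-0.29, SE 0.12, adjusted p = 0.0992, edgeR) or with all 6 libraries (-0.20), and fell by 0.40 (SE 0.07, adjusted p = 0.00182) without both libraries numbered 3. The count of Edem1 was 1.8, 1.53 and 1.48 times that of Edem2 in KO-labelled libraries 1, 2 and 3, against 3.37, 3.60 and 1.75 times in WT-labelled libraries 1, 2 and 3.

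The ubiquitin ligase core of ERAD, Syvn1 (HRD1) and its partner Sel1l, did not pass without the library labelled WT 3. Sel1l was at 136, 115 and 218 CPM in KO-labelled libraries 1, 2 and 3, against 156, 147 and 148 CPM in WT-labelled libraries 1, 2 and 3. The WT label had a narrow range, and the KO label had both the lowest and the highest library. Its log2 difference was 0.05 (SE 0.25) without the library labelled WT 3 but -0.26 (SE 0.09, adjusted p = 0.044, edgeR) without both libraries numbered 3, so the library labelled KO 3 decided its sign. Syvn1 was at 81.2 to 114 CPM under the KO label and 82.2 to 112 CPM under the WT label (-0.23, SE 0.15, adjusted p = 0.28 without the library labelled WT 3, edgeR). Os9, a lectin that hands glycoproteins to this ligase, fell by 0.65 (SE 0.10, adjusted p = 0.00226, edgeR) in that fit, at 189.8, 208 and 219 CPM in KO-labelled libraries 1, 2 and 3, against 311, 336 and 206 CPM in WT-labelled libraries 1, 2 and 3. Derl2, 1 of 3 derlins that form the exit path from the ER, fell by 0.31 (SE 0.10, adjusted p = 0.0426, edgeR). Derl1 did not pass (-0.24, SE 0.17, adjusted p = 0.328, edgeR) and reached 334 CPM in the library labelled KO 3, above all others. Without both libraries numbered 3, Derl1 fell by 0.43 (SE 0.07, adjusted p = 0.000658) and Syvn1 by 0.38 (SE 0.09, adjusted p = 0.00517) in edgeR. Herpud1, a stress-induced scaffold of the ligase with the ERSE-II printed above, was at 332, 302 and 454 CPM in KO-labelled libraries 1, 2 and 3, against 324, 359 and 344 CPM in WT-labelled libraries 1, 2 and 3 (0.09, SE 0.17, adjusted p = 0.734, edgeR). Its groups overlapped, with the library labelled KO 3 alone above the rest. With all 6 libraries the log2 differences were 0.06 for Sel1l, -0.10 for Syvn1, -0.47 for Os9, -0.24 for Derl2, -0.16 for Derl1 and 0.08 for Herpud1, and none passed.

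Derl3, the derlin best known from secretory tissues such as pancreas and from plasma cells, was close to absent. Its counts were 5, 2 and 0 in KO-labelled libraries 1, 2 and 3, against 58, 37 and 2 in WT-labelled libraries 1, 2 and 3. The libraries labelled WT 1 and WT 2 thus stood at 1.90 and 1.21 CPM and the other 4 at 0.173 CPM or less, near the floor of 3 counts. With most libraries at so few counts no fold change is given.

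The library labelled KO 3 was the highest of the 3 labelled KO in 26 of 33 members. The same held for 39.2% of all tested genes and 60.2% of the 98 other ER genes. The median distance of the library labelled KO 3 from those labelled KO 1 and KO 2 was 0.21 log2 units over the members. It was 0.142 over the other ER genes and 0.002 over all tested genes. Ern1 (0.80), Sel1l (0.80), Dnajb9 (0.70), Ssr3 (0.55), Xbp1 (0.53), Derl1 (0.52), Herpud1 (0.52) and Hspa5 (0.51) had the largest distances upward. Creld2 (-0.29), Sdf2l1 (-0.23) and Calr (-0.15) were lower there. The same library held more immunoglobulin RNA. The 8 of 12 B and plasma cell markers that were in the table summed to 272 CPM there, against 51.2 to 71.0 CPM in the other 5 libraries. Ighm was at 17.3, 13.3 and 194 CPM in KO-labelled libraries 1, 2 and 3, against 9.87, 7.82 and 17.1 CPM in WT-labelled libraries 1, 2 and 3. Igkc was at 37.0 CPM in the library labelled KO 3 and at most 0.684 CPM elsewhere, and Jchain at 4.40 CPM against at most 0.133 CPM. Prdm1 and Cd79b, the next most abundant of these markers, were not highest there (29.9 and 6.38 CPM in the library labelled KO 3, 24.4 to 40.4 and 11.7 to 19.3 CPM elsewhere), and Derl3 was at 0. The part of such RNA in the levels of the ER genes was not tested.

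Set per length, the members ranged from abundant messages to rare ones. In CPM per kilobase of annotated exons (the union over GENCODE vM21 transcripts), Hspa5 stood at 609 ± 131 under the KO label and 549 ± 28.5 under the WT label (SD, n = 3 each) and ranked 50 of 18048 detected genes by its mean over the 6 libraries. Pdia3 followed at 319.6 ± 8.77 under the KO label and 523 ± 187 under the WT label, with rank 80. P4hb stood at 373 ± 57.6 under the KO label and 438 ± 79.6 under the WT label, with rank 86. Pdia3 stood above P4hb under the WT label only, owing to its high level in WT 1 and WT 2, and below P4hb under the KO label. Hspa5 did not overlap P4hb in any library (at least 524.9 against at most 499.5), while Hspa5 and Pdia3 did not differ beyond their spread under the WT label. Hsp90b1 ranked 115 and Calr 165, and other chaperones were far down, with Dnajc3 at rank 1502, Dnajb9 at 3671 and Hyou1 at 4543. The sensors were far lower, with Ern1 at 8.11 ± 2.84 and Atf6 at 5.71 ± 1.28 CPM per kilobase under the KO label, and 8.18 ± 1.78 and 5.22 ± 0.333 under the WT label. Xbp1, at 135 ± 30.4 under the KO label and 256 ± 114 under the WT label, ranked 254.

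**Figure D4:**
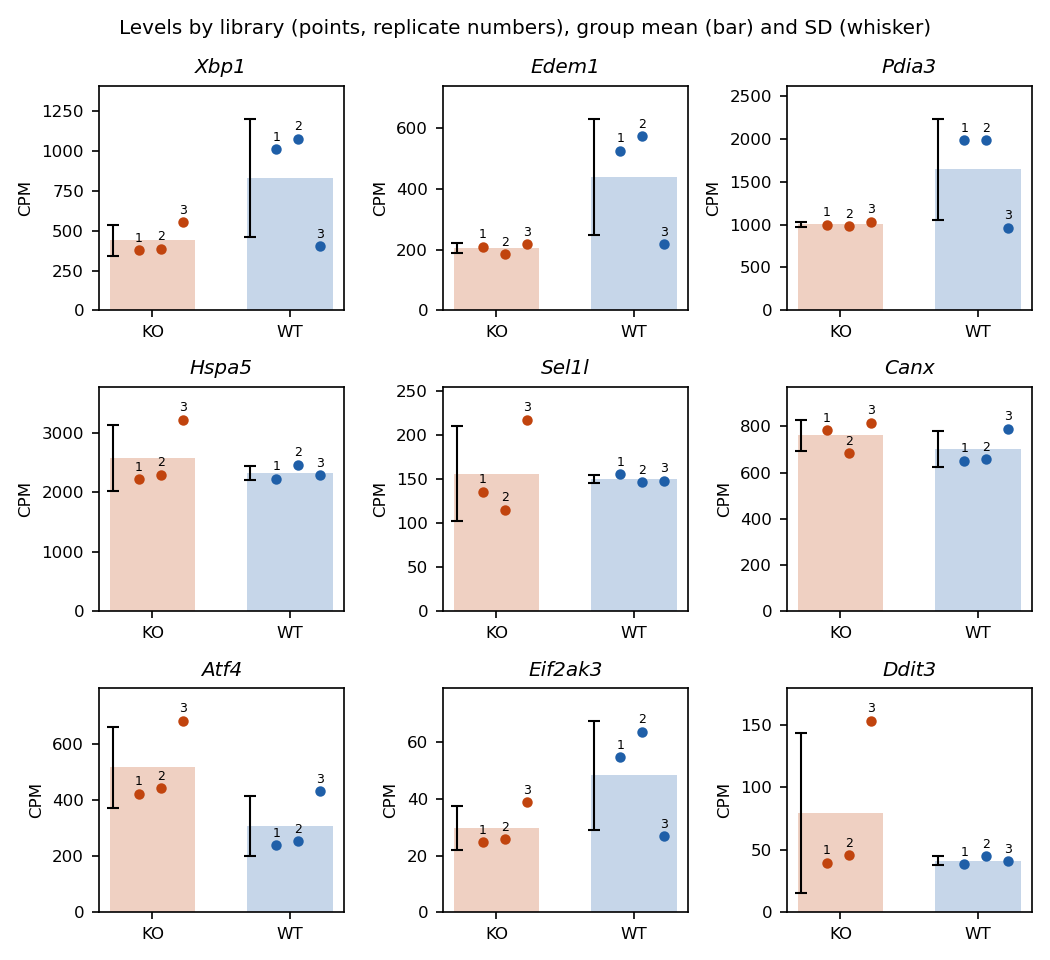
CPM of 6 members and 3 other genes of ER stress signalling in each library (points with replicate numbers; KO left, WT right), with group means as bars and SD as whiskers. The point labelled WT 3 lies with those labelled KO in Xbp1, Edem1, Pdia3, Atf4 and Eif2ak3, and the point labelled KO 3 is the highest in Hspa5, Sel1l, Atf4 and Ddit3.

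A wider list of 98 other ER genes, chosen by function, gave 0 calls of 96 tested with all 6 libraries, and 0 calls by DESeq2. In edgeR 15 of the 96 had an unadjusted p under 0.05, beside 2026 of all 14052 genes, a similar share. Without WT-labelled library 3, 14 of them rose and 28 fell, with a median log2 difference of -0.18, beside 17.7% and 16.1% of all genes. Of 19 genes of signal recognition, translocation and signal cleavage, 2 rose and 6 fell. Sec11c, a catalytic subunit of signal peptidase, was at 345, 377 and 345 CPM in KO-labelled libraries 1, 2 and 3, against 907, 940.04 and 324 CPM in WT-labelled libraries 1, 2 and 3. The pair labelled WT 1 and WT 2 stood far above the rest, and Sec11c fell by 1.37 (SE 0.08, adjusted p = 8.04e-05, edgeR). Spcs3, another subunit of that enzyme, fell by 0.75 (SE 0.09), and the 2 subunits of the signal recognition particle receptor, Srpr (0.34, SE 0.10) and Srprb (0.31, SE 0.09), rose.

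N-glycosylation and glycoprotein quality control had 9 members that fell and 1 that rose of 18. Without the library labelled WT 3, 16.1% of all tested genes were called lower and 17.7% higher. Rpn2 (-0.60, SE 0.09) and Tusc3 (-0.87, SE 0.13), subunits of the oligosaccharyltransferase, were lowest in p among those that fell. Mogs, the glucosidase that removes the first glucose from the sugar chain, rose by 0.56 (SE 0.12), and the next lowest p among positive values was that of Rpn1 (0.07, SE 0.08, adjusted p = 0.578, edgeR). Among 21 tested folding enzymes 6 fell and 1 rose. Ppib, the ER cyclophilin, fell by 0.54 (SE 0.09) and Fkbp2 by 0.69 (SE 0.12), while Cnpy3, a cofactor of GRP94, rose by 0.37 (SE 0.10) and Tor1a had 0.23 (SE 0.10, adjusted p = 0.122, edgeR). Of 22 further ERAD genes 4 rose and 2 fell, beside the 17.7% and 16.1% of all tested genes given above. Vcp, the ATPase that pulls proteins out of the ER membrane, was at 1347, 1320.3 and 1599.6 CPM in KO-labelled libraries 1, 2 and 3, against 1049, 1082 and 1327 CPM in WT-labelled libraries 1, 2 and 3. Vcp rose by 0.42 (SE 0.11) and its cofactor Nploc4 by 0.44 (SE 0.11), whereas Ngly1, which strips sugars from extracted proteins, fell by 1.01 (SE 0.11) and the lectin Erlec1 by 1.06 (SE 0.16). All of these values are from edgeR without the library labelled WT 3, and none of these genes passed with all 6 libraries.

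Of 16 signalling genes of the unfolded protein response, 6 rose and 5 fell once WT-labelled library 3 was left out. The shares over all tested genes were 17.7% and 16.1%. Rtcb, the ligase that joins the exons of Xbp1 after IRE1 has cut them, was at 247, 255 and 235 CPM in KO-labelled libraries 1, 2 and 3, against 143, 148 and 256 CPM in WT-labelled libraries 1, 2 and 3. It rose by 0.76 (SE 0.09, adjusted p = 0.000765, edgeR), the direction opposite to Xbp1. Creb3l2, an ER-bound factor related to ATF6, fell by 1.10 (SE 0.13), and Tmbim6, an inhibitor of cell death in the ER membrane, by 0.50 (SE 0.08). Atf4, the translationally controlled factor below PERK and other kinases, was at 423, 443 and 683 CPM in KO-labelled libraries 1, 2 and 3, against 240.2, 253 and 432 CPM in WT-labelled libraries 1, 2 and 3, and rose by 1.07 (SE 0.21, adjusted p = 0.0078, edgeR). Eif2ak3, which encodes PERK and was chosen here after its values were seen, fell by 0.98 (SE 0.21, adjusted p = 0.0107, edgeR).
Ddit3, which encodes CHOP and was also chosen after its values were seen, was at 39.9, 45.8 and 153 CPM in KO-labelled libraries 1, 2 and 3, against 38.4, 45.2 and 40.8 CPM in WT-labelled libraries 1, 2 and 3. Only the library labelled KO 3 was high, and Ddit3 did not pass (0.94, SE 0.62, adjusted p = 0.301, edgeR).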

How the data were processed

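Deposited by the authors were estimated counts by gene, and normalized counts, a signal with no fixed total. Tools named in the submitters' processing notes, without roles, are STAR, Partek and CASAVA 1.8.2, with the build mm10. The sources used here do not say how strand and reads shared by several genes were handled. Estimated counts of 18543 genes were rounded, then fitted by edgeR 4.0.16 under R 4.3.3 (TMM, filterByExpr, robust quasi-likelihood fit over all genes, no covariate), knockout over wild type. Benjamini-Hochberg adjustment ran over all tested genes and 0.05 was the threshold. The SE is the log2 difference divided by the root of F. CPM are rounded counts over TMM-adjusted library sizes. Gene ends are the deposited ones less 1 base. Floors of 3 counts cover counting error only. No label states whether libraries came from separate mice. If they did not, the p-values reflect technical spread alone.

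Members were taken by symbol. Members, gene lists and alternatives were chosen with earlier results of these data known. Named genes are all 33 members, with values per library for the largest difference in each role and other key genes, and, for each list of other ER genes, the lowest 2 p-values per direction without the library labelled WT 3. Alternatives were DESeq2 1.42.0, limma 3.58.1 (voom, and trend on log2 of the deposited normalized signal plus 1), other scalings and filters, no robust estimation, a replicate block and left-out libraries. Near-identical stretches (at least 95% identity over 150 bases) were sought with BLAST+ 2.17.0 in GENCODE vM21 transcripts. The fit was also run on simulated counts in which no library went against its label, so that run does not cover the pattern met here.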

Additional observations from a re-analysis of the deposited data

How the results depend on the processing

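Of the scalings, filters and tools tried on all 6 libraries, none changed the number of members called (0 higher, 0 lower), and the median member's log2 difference stayed negative in every setting. Leaving out 1 library at a time gave 0 to 1 members called higher and 0 to 14 called lower, and 0 to 14 and 0 to 28 of the other ER genes. The upper values all come from leaving out the library labelled WT 3, where 17.7% of all tested genes were called higher and 16.1% lower. Without both libraries numbered 3 the counts were 1 and 23 members and 20 and 41 other ER genes. There 22.7% of all tested genes were called higher and 22.7% lower. The log2 differences of Atf6 (-0.05), Hspa5 (-0.046), Sec61b (-0.10), Ssr1 (-0.088), Ssr3 (-0.032), Herpud1 (-0.10) and Sel1l (-0.26) turned negative in that fit. Ssr1 also turned negative with upper-quartile scaling (-0.004), no low-count filter (-0.012), the filter of 2 CPM in 3 libraries (-0.013) and limma-trend (-0.009), and Sel1l with limma-trend (-0.027). Over single left-out libraries the log2 difference ranged from -0.01 to 0.27 for Atf6, -0.33 to 0.17 for Ern1, -0.11 to 0.17 for Herpud1, -0.037 to 0.25 for Hspa5, -0.028 to 0.13 for Sec61b, -0.25 to 0.20 for Sel1l, -0.049 to 0.078 for Ssr1 and -0.017 to 0.27 for Ssr3. Allowing 1 mismatch took the members with an ERSE to 15, since the search is wider. Same-numbered libraries did not deviate together (r = -0.04, 0.02 and -0.01 over genes). With only 3 libraries under each label, such values cannot settle whether the samples were paired. With a replicate block 0 members were called and the median member stood at -0.23. The cause of the other changes was not tested.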

Other observations

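Values outside the named genes, chosen after they were seen, were as follows. Ero1l, the oxidase that recharges protein disulfide isomerase, had 3207, 2802 and 5677 CPM in KO-labelled libraries 1, 2 and 3, against 6363, 6520.1 and 3207 CPM in WT-labelled libraries 1, 2 and 3. The library labelled KO 3 lay near those labelled WT 1 and WT 2, and the library labelled WT 3 at the level of that labelled KO 1. With the library labelled WT 3 left out, its log2 difference was -0.72 and did not pass (SE 0.27, adjusted p = 0.0847, edgeR), and was -1.09 (adjusted p = 2.13e-06, edgeR) without both libraries numbered 3. Trib3, a target of ATF4 and CHOP, was at 155, 179.8 and 479.7 CPM in KO-labelled libraries 1, 2 and 3, against 58.0, 65.5 and 182 CPM in WT-labelled libraries 1, 2 and 3. Ppp1r15a, the phosphatase subunit GADD34 that ends the translational block, was at 56.3, 72.7 and 147 CPM in KO-labelled libraries 1, 2 and 3, against 37.96, 38.8 and 59.0 CPM in WT-labelled libraries 1, 2 and 3. In both genes the library labelled KO 3 was the highest and the library labelled WT 3 lay above the other libraries labelled WT.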
